A study of Mus musculus with 23 samples.

Results

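LKS cells, a fraction named for absent lineage markers together with c-kit and Sca-1 on the surface, were compared between still and stirred cultures of mouse embryonic stem cells (ESCs). The comparison rests on 6 of the 23 Illumina mouse bead arrays of the study: 3 arrays of Static cells and 3 of Spinner cells, read over all 25697 probes, which stand for 17912 genes. Both groups came from R1 ESCs (129X1/SvJ x 129S1), a single line grown on inactivated mouse embryonic fibroblasts, then left to form embryoid bodies in suspension and sorted for c-kit and Sca-1 at day 7 of differentiation. Static bodies stood in low-attachment flasks seeded at 500000 cells per ml. Spinner bodies were stirred at 100 rpm in flasks seeded at 750000 cells per ml, so the effect of stirring and that of seeding density cannot be told apart. No lineage depletion was applied to ESC-derived cells, and in these mixed populations fewer cells of a type and less RNA per cell cannot be told apart. Undifferentiated ESCs at day 0 (3 arrays), LKS cells of Synthecon rotary vessels at 20 rpm and day 7 (8 arrays), bone marrow (BM) of mice aged 10 weeks (3 arrays) and fetal liver (FL) at embryonic day 15 (3 arrays), all of the same strain cross, serve as reference levels.

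Embryoid bodies pass through steps that resemble the early embryo. Pluripotent cells first leave the naive state for a formative, epiblast-like one, then form mesoderm, and the first blood to arise is primitive erythroid, with embryonic globins, together with primitive macrophages and megakaryocytes. Hox genes are switched on along the body axis as posterior mesoderm forms, and definitive blood progenitors with the marrow program arise later, from endothelium that expresses blood transcription factors.

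Genes that rose in Static against Spinner cells included 3 embryonic globins, 8 of 24 early mesoderm genes, 13 of 35 Hox genes, 11 of 25 imprinted genes and 9 of 22 mesenchymal genes. Those that fell included Dnmt3b, Dnmt3l, Pou3f1, Fgf5 and 3 Rhox genes. In all, 289 genes rose (1.61% of the genes tested) and 138 fell (0.77%) in Static at an adjusted p under 0.05, with limma on the 6 arrays. All 427 (2.38% of genes) had arrays that do not overlap between the groups, which their selection by a test on the same arrays favours. Over all genes, 13.3% did not overlap in the upward direction and 15% in the downward direction. The median fold of the genes that rose was 3.81 and that of the genes that fell was 2.58. Of the genes that rose, 270 differed at least 2-fold and 138 at least 4-fold, against 121 and 28 of those that fell. By probe, 337 (1.31%) were called higher and 171 (0.665%) lower, 508 (1.98%) in all. These counts depend on single arrays: they were 2528 and 2548 without Static replicate 1, 22 and 4 without Spinner replicate 1, 36 and 6 without Spinner replicate 2, and between 116 and 123 higher and between 13 and 19 lower without each of the other 3 arrays.

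The arrays of a group did not stand equally close. Between 10388 and 11102 probes were above background (detection p under 0.01) on the 6 arrays. Spinner replicates 1 and 2 were close repeats (Pearson r over probes 0.994, with 14 probes over 2-fold apart), and with their mean taken as 1 sample 23 probes were called higher and 6 lower. Among Static arrays, replicates 2 and 3 differed by over 2-fold at 1264 probes, while replicate 1 differed from them at 1926 and 2486. Static replicate 1 lay nearer to Spinner, with 602 to 674 probes over 2-fold apart, than did replicate 2 (2778 to 3139) or replicate 3 (3433 to 3900). It shared its slide with Static replicate 2 and with Spinner replicates 1 and 2, so the slide does not separate it from these. Static replicate 3 and Spinner replicate 3 were each on another slide, without an array of the other group. For these arrays slide and culture cannot be told apart. The genes that the results turn on are therefore given on every array, and others by their fold or adjusted p alone.

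The sorted surface marker and the pluripotency genes were read first, as a check of the cells. Ly6a, the gene of Sca-1, was at log2 9.34, 8.91 and 9.65 in Static and at 9.52, 9.65 and 8.92 in Spinner, above background on all 6 arrays, with a difference of -0.06 (95% interval -0.71 to 0.59). No probe for Kit was used here. Of the 15 LKS surface and progenitor markers measured, none was called, and 10 lay below background on all 3 Spinner arrays. Cd34, a marker of progenitors and endothelium, was at 6.75, 8.4 and 8.31 in Static and at 6.3, 6.28 and 6.29 in Spinner, below background on Static replicate 1 and on all Spinner arrays (adjusted p = 0.089). Ptprc, the pan-leukocyte antigen CD45, was below background on all 6 arrays, against a mean of 7.80 in BM. Pou5f1, the central regulator of pluripotency, was at 12.73, 12.42 and 12.69 in Spinner, beside a mean of 12.64 in undifferentiated ESCs. The Spinner population, sorted by surface markers of blood progenitors, thus held the Pou5f1 level of undifferentiated cells, with Ptprc below background. Synthecon arrays held that Pou5f1 level as well, at 12.45 to 13.16.

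**Figure D1:**
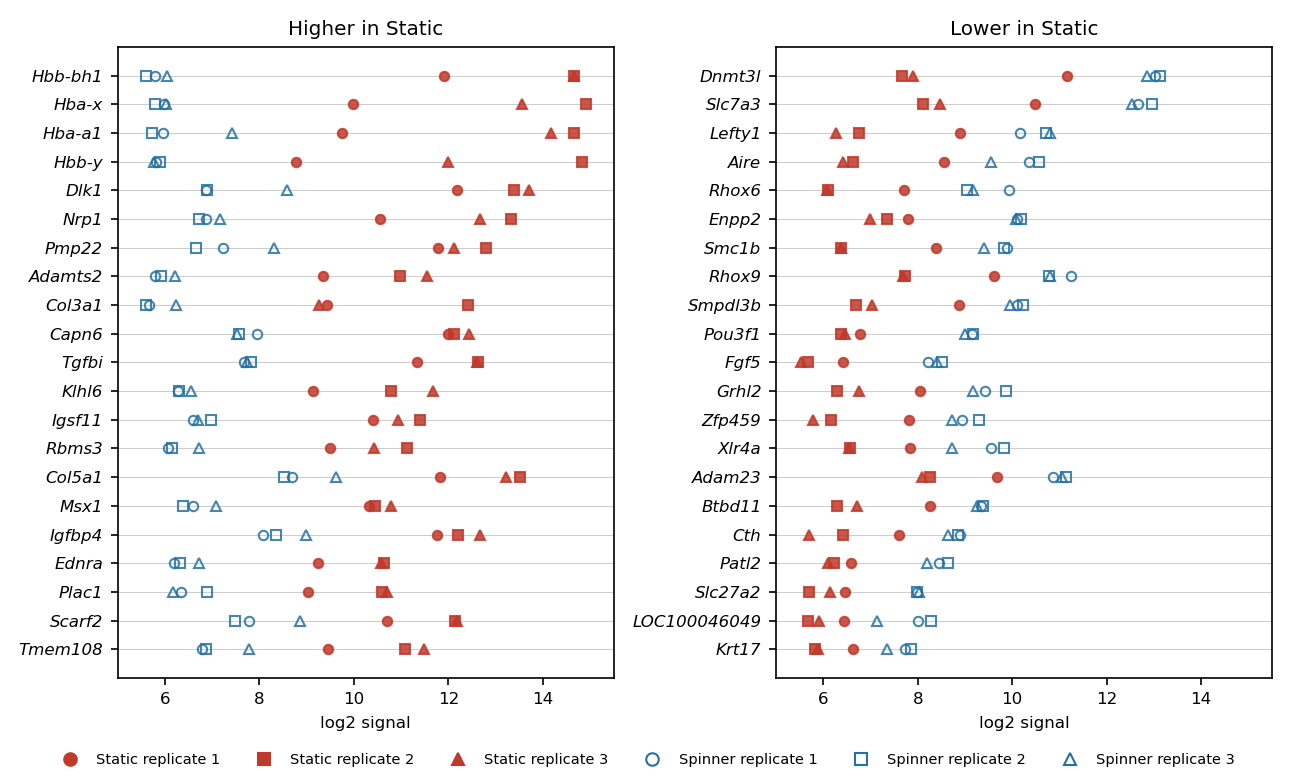
Log2 signal on each of the 6 arrays (x axis) for the genes with the largest rise (left) and the largest fall (right) in Static among genes that passed the test; filled red symbols are Static and open blue symbols are Spinner, with a shape for each replicate. The groups do not overlap in any row, and Static replicate 1 (circle) is the Static array nearest to Spinner in most rows, as it is for 238 of the 289 genes that rose and 128 of the 138 that fell.

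Embryonic globins and Hba-a1 showed the largest differences among genes that passed the test. Hbb-bh1, the beta-like globin of primitive red cells, was at log2 11.9, 14.65 and 14.65 in Static and at 5.79, 5.60 and 6.04 in Spinner, where it was below background. It was at least 124-fold higher in Static (log2 difference 7.92 ± 0.66, SE, n = 3 and 3, adjusted p = 0.0022). A bound of this kind, used wherever all 3 arrays of a group were below background, raises the dim value to the lowest signal of a probe that was above background on the same array. Hba-x, the embryonic alpha-like globin zeta, was at 9.99, 14.91 and 13.56 in Static and at 5.98, 5.80 and 6.03 in Spinner, and was at least 65.6-fold higher (adjusted p = 0.018). Hbb-y, the other embryonic beta-like globin, was at 8.77, 14.82 and 12 against 5.81, 5.90 and 5.76, at least 33.8-fold higher (adjusted p = 0.049). The adult alpha globin Hba-a1 was at 9.74, 14.65 and 14.18 against 5.95, 5.72 and 7.42 (log2 difference 6.49 ± 1.15, adjusted p = 0.034). Its near-identical copy Hba-a2 could share this signal, so the gene behind it is uncertain. In each of these globins Static replicate 1 was the lowest of the Static arrays and still lay above every Spinner array.

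The promoters of 3 of these globins are shown because the genes were high on the same arrays, and because GATA and Klf factors are known to drive globin genes through sequences near the start. Each line gives the 200 bases before the RefSeq start, 5′ to 3′ on the strand of the gene (GRCm38.p6), Hba-x at chr11:32276400-32276599 on the plus strand, Hbb-y at chr7:103853208-103853407 on the minus strand and Hba-a1 at chr11:32283472-32283671 on the plus strand. Capitals mark TGATAA, which is one form of the motif bound by GATA factors, and CACCC, which is one form of the motif bound by Klf factors, on either strand.
Hba-x: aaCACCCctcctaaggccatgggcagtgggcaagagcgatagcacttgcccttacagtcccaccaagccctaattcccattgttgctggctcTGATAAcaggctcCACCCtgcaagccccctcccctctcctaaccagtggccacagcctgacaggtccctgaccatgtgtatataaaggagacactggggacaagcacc
Hbb-y: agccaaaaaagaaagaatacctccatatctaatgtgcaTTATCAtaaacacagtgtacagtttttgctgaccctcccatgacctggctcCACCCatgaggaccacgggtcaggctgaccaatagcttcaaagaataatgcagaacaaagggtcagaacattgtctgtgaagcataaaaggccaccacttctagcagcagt
Hba-a1: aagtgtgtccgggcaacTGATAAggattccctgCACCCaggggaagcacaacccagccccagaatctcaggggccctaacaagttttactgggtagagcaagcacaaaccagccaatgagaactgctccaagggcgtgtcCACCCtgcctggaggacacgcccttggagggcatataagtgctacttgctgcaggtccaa

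Each of the 3 windows held both motifs. AGATAA, another form bound by GATA factors, and ATGCAAA were searched as well and were found in none of the 3. TGATAA began 108 bases before the start in Hba-x and 183 bases before it in Hba-a1, and in Hbb-y it lay on the opposite strand, 162 bases before the start. CACCC was found at 198 and 95 bases before the start of Hba-x, at 111 bases in Hbb-y and at 167 and 60 bases in Hba-a1. Over windows of the same annotation that run from 250 bases before to 50 after the start, TGATAA was present in 9.23% and CACCC in 56.8% of 27025 promoters. Among genes on the arrays, 6.83% of 13709 promoters held TGATAA, against 7.11% of 211 promoters of genes that rose and 2.35% of 85 of genes that fell. CACCC was in 59.7%, 74.9% and 67.1% of these, and AGATAA in 9.64%, 7.58% and 4.71%. These shares describe letters in a window and were not tested.

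Other red cell genes followed the globins on Static replicates 2 and 3 and much less on replicate 1. All 8 primitive erythroid genes measured were below background on all Spinner arrays. The 3 embryonic globins rose and the other 5 did not pass the test. Klf1, the erythroid Klf factor, was at 6.6, 10.1 and 8.21 against 6.37, 6.77 and 6.37, and Gata1 at 6.06, 7.69 and 6.78 against 5.85, 5.76 and 5.85 (adjusted p = 0.20 and 0.15). Replicate 1 thus held high embryonic globin signal with these regulators near the Spinner level. The median difference over the 8 genes was 0.87 on Static replicate 1, 5.73 on replicate 2 and 4.97 on replicate 3. Without Static replicate 1, all 8 genes passed the test, against 11% of all genes. Without Static replicate 2, and likewise without replicate 3, 1 of the 8 passed. Replicate 1 is the Static array nearest to Spinner, so counts without it are no independent support.

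Leukocyte genes separated the Static arrays in the same way. Of 21 pan-leukocyte genes measured none was called, although 10 did not overlap between the groups, against 13.3% of all genes in that direction. Above background were 5 of the 21 on Static replicate 1, 17 on replicate 2 and 18 on replicate 3, and 16 were below background on every Spinner array. Cd52, a surface antigen of leukocytes, was at 6.4, 11.71 and 11.05 in Static and between 5.94 and 6.02 in Spinner (adjusted p = 0.12). Mpo, the granule enzyme of myeloid progenitors, was at 7.07, 12.35 and 12.64 against 5.68, 6.00 and 5.72 (adjusted p = 0.087). In both, Static replicate 1 lay close to Spinner and the other Static arrays far above it. The median difference over the pan-leukocyte list was 0.15, 2.67 and 2.69 on the 3 Static arrays, and that over 21 monocyte and macrophage genes was 0.01, 2.21 and 1.34. Ccl3, a chemokine of macrophages, was at 6.79, 12.69 and 11.81 against 5.72, 5.72 and 5.61 (adjusted p = 0.095). Without Static replicate 1, 18 of 21 pan-leukocyte and 14 of 21 monocyte and macrophage genes passed the test as higher, against 11% of all genes. None of either list passed without Static replicate 2, nor without replicate 3. With all 23 arrays in the fit, which then share 1 spread, 15 of the 21 pan-leukocyte genes passed, against 7.87% of all genes.

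Among 20 transcription factors of blood stem cells, Gata2, Meis1 and Hoxb4 rose and none fell. Gata2, which maintains blood stem and progenitor cells, was at 9.33, 8.72 and 9.87 in Static and at 6.74, 6.53 and 6.65 in Spinner, at least 5.74-fold higher (adjusted p = 0.0057). Meis1, a Hox cofactor, was at 9.74, 11.22 and 10.57 against 7.17, 7.26 and 7.94, 8.30-fold higher (adjusted p = 0.0098). Hoxb4, used to expand blood progenitors, was at 7.27, 8.43 and 8.32 against 6.26, 6.4 and 6.22, at least 2.33-fold higher (adjusted p = 0.032). All 3 were high on each Static array, whereas factors that define the step to blood were high on Static replicates 2 and 3. Tal1, required for all blood, was at 6.37, 9.10 and 8.83 against 5.75, 5.67 and 5.79, and Lmo2, its partner, at 8.06, 12.24 and 12.20 against 6.98, 6.69 and 8.31 (adjusted p = 0.089 and 0.11). Runx1, needed for definitive blood to leave the endothelium, was at 6.11, 7.79 and 7.90 against 5.83, 6.06 and 6.02 (adjusted p = 0.14). Without Static replicate 1, 13 of the 20 genes passed the test as higher, against 11% of all genes. Without Static replicate 2 it was 2 of the 20, and without replicate 3 it was 1.

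Megakaryocyte and endothelial genes followed the same order. Of 18 megakaryocyte and platelet genes F2r rose, from 11.83, 12.34 and 12.09 in Spinner to 13.25, 13.95 and 14.44 in Static (3.46-fold, adjusted p = 0.023). F2r, the thrombin receptor, is found in endothelium and fibroblasts as well, whereas Pf4, a chemokine of platelet granules, was at 6.06, 12.49 and 9.56 against 5.45, 5.83 and 5.59 (adjusted p = 0.15). No gene of 26 endothelial ones was called. Emcn, a sialoglycoprotein of endothelium, was at 7.34, 9.92 and 11.50 against 5.53, 5.77 and 5.78 (adjusted p = 0.060), and Tek, the angiopoietin receptor, at 7.73, 10.32 and 10.77 against 7.31, 7.44 and 7.37 (adjusted p = 0.12). Endothelial genes were highest on Static replicate 3, with medians of 0.28, 1.06 and 2.23 above Spinner. Kdr, the VEGF receptor that marks blood and vessel precursors, was below background on all 6 arrays.

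**Figure D2:**
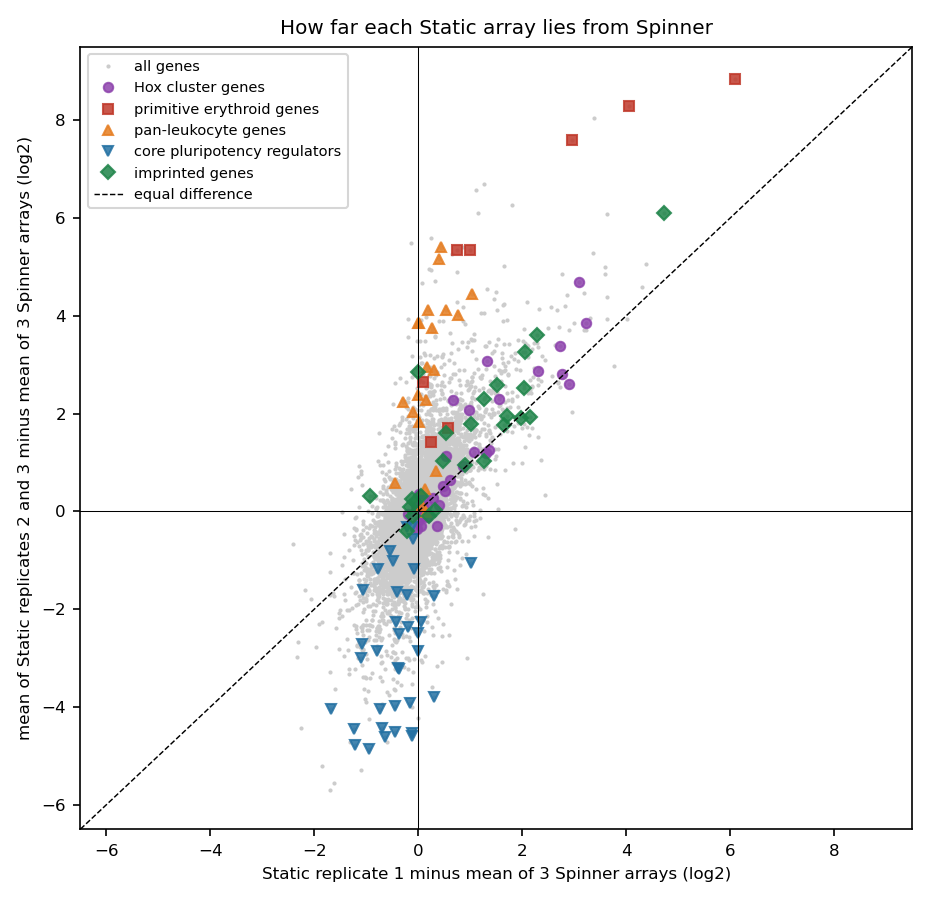
Each point is a gene; the x axis is the log2 difference of Static replicate 1 from the mean of the 3 Spinner arrays and the y axis that of the mean of Static replicates 2 and 3, with 5 gene lists in colour, all genes in grey and a dashed line where both are equal. Hox and imprinted genes lie near the dashed line, while pan-leukocyte genes and core pluripotency regulators lie near the vertical axis, where Static replicate 1 equals Spinner.

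Pluripotency genes mirrored the leukocyte genes. Of 36 core pluripotency regulators Lefty1 fell and no other member passed the test, and 25 of them did not overlap in the downward direction, against 15% of all genes. Lefty1, an inhibitor of Nodal signalling, was at 8.89, 6.76 and 6.28 in Static and at 10.16, 10.72 and 10.81 in Spinner, 9.55-fold lower (adjusted p = 0.038). Pou5f1 was at 12.49, 8.78 and 7.24 in Static, so that replicate 1 held the level of undifferentiated ESCs (adjusted p = 0.16). Nanog, a partner of Pou5f1, was at 13.49, 10.59 and 8.20 in Static against 13.27, 13.25 and 13.04 in Spinner (adjusted p = 0.24). Zfp42, a marker of naive ESCs, was at 11.34, 7.71 and 7.06 against 12.01, 12.09 and 11.88 (adjusted p = 0.10), and Sox2 at 8.04, 6.59 and 6.23 against 8.76, 8.95 and 9.68 (adjusted p = 0.056). The median difference over the list was -0.40, -2.56 and -2.91 on the 3 Static arrays. Without Static replicate 1, 34 of the 36 genes passed the test as lower, against 10.9% of all genes, and 31 passed with all 23 arrays in the fit, against 7.44%. None passed without Static replicate 2, nor without replicate 3.

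Several formative epiblast genes were lower on every Static array. Of 15 formative and primed epiblast genes 4 fell (Pou3f1, Fgf5, Dnmt3b and Dnmt3l), against 0.77% of all genes, and none rose. Dnmt3b and Dnmt3l were also the 2 of 15 DNA methylation and demethylation genes that fell. Pou3f1, a POU factor of the formative state, was at 6.78, 6.38 and 6.47 in Static, below background, and at 9.15, 9.17 and 9.0 in Spinner, at least 4.94-fold lower in Static (log2 difference -2.56 ± 0.20, adjusted p = 0.0015). Fgf5, the classical marker of the primed epiblast, was at 6.42, 5.67 and 5.53 against 8.22, 8.52 and 8.4, at least 2.99-fold lower (adjusted p = 0.0046). Its Spinner level was above that of undifferentiated ESCs (mean 6.90). Pou3f1 did not share this: it was at 10.59, 9.0 and 10.38 in undifferentiated ESCs, above Spinner on replicates 1 and 3. Dnmt3b, a de novo DNA methyltransferase, was at 11.80, 10.97 and 11.58 against 13.21, 13.52 and 13.17, 3.60-fold lower (adjusted p = 0.0088). Dnmt3l, its cofactor without enzyme activity, was at 11.15, 7.67 and 7.91 against 13.03, 13.12 and 12.86, 17.1-fold lower and the largest fall among genes that passed (adjusted p = 0.043). The probe of Dnmt3a, the other de novo methyltransferase gene, was below background on all 6 arrays, so its level could not be compared. Otx2, a factor of the anterior epiblast, was at 10.96, 7.20 and 6.71 against 12.62, 12.83 and 12.53 and did not pass (adjusted p = 0.057).

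Germ line and X-linked homeobox genes were also among the falls. Of 26 germ cell genes Rhox5, Rhox6, Rhox9 and Piwil2 fell and none rose. Rhox5, a reproductive homeobox gene active in early embryos, was at 12.28, 10.98 and 11.10 in Static and at 13.85, 13.92 and 13.20 in Spinner, 4.59-fold lower (adjusted p = 0.023). Rhox6 was 6.76-fold and Rhox9 6.07-fold lower (adjusted p = 0.025 and 0.039). In undifferentiated ESCs these were lower than in Spinner, with means of 12.02, 6.82 and 7.86, and in Synthecon cells they were at 13.99, 9.18 and 11.11. Rhox6 and Rhox9, which are also placental genes, were the 2 trophoblast-list genes that fell. Tex19.1 and Tfap2c, germ line and pluripotency genes, were at or above the Spinner level on Static replicate 1 (11.17 and 12.91) and below it on replicates 2 and 3 (7.32 and 7.31, and 10.10 and 8.67), and did not pass the test.

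A group of early mesoderm genes was higher on each Static array. Of 24 primitive streak and early mesoderm genes 8 rose (Cdx2, Pdgfra, Bmp4, Hand1, Evx1, Hand2, Tbx20 and Foxf1) and none fell, while 9 were below background on all Static arrays. Cdx2, which patterns posterior mesoderm and trophoblast and lies upstream of Hox genes, was at 9.84, 9.56 and 9.94 in Static and at 5.93, 5.45 and 6.08 in Spinner, at least 7.95-fold higher (log2 difference 3.96 ± 0.23, adjusted p = 0.00059). It was at 8.56, 8.24 and 9.05 in undifferentiated ESCs, so that Spinner lay below these as well. Hand1, of lateral mesoderm, was at 7.46, 7.83 and 7.89 against 5.81, 5.63 and 5.82, at least 1.92-fold higher (adjusted p = 0.0024). Bmp4, the ligand that induces ventral mesoderm, was at 10.44, 11.27 and 11.73 against 9.06, 8.77 and 8.88, 4.74-fold higher (adjusted p = 0.016). T, a gene of the primitive streak itself, was at 7.28, 6.43 and 5.91 against 6.21, 6.24 and 6.54, above background on Static replicate 1 alone (adjusted p = 0.76), and Mixl1, another streak gene, was below background on all 6 arrays. Isl1, of cardiac and limb precursors, and Tnni1, the slow skeletal troponin I also used in early heart, rose in the cardiac list (at least 4.61-fold and 4.67-fold).

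Hox genes rose in all 4 clusters. Of 35 measured, 13 rose and none fell, and at least 1 Static array was above background for 17 and at least 1 Spinner array for 3. Those that rose included Hoxa5 and Hoxa7, Hoxb2, Hoxb4 and Hoxb7, Hoxc6 and Hoxc9, and Hoxd3, Hoxd4, Hoxd8, Hoxd9 and Hoxd10. Of these, Hoxd3 was below background on all 6 arrays. Hoxc6, of the thoracic region, was at 8.69, 9.84 and 10.71 in Static and at 5.53, 5.66 and 5.58 in Spinner, at least 7.79-fold higher (adjusted p = 0.0053). Hoxd8 was at 9.07, 9.79 and 9.63 against 5.87, 6.04 and 5.64, at least 6.54-fold higher (adjusted p = 0.001). Hoxd10, a gene of the lower trunk and limb, was at 8.52, 8.6 and 8.53 against 5.83, 5.80 and 5.64, at least 3.39-fold higher (log2 difference 2.79 ± 0.16, adjusted p = 0.00059). Here the 3 Static arrays stood nearly at the same level. Over the 14 Hox genes for which Static replicates 2 and 3 lay at least 1 log2 unit from Spinner, replicate 1 had covered a median of 80.6% of the way from Spinner to the other Static arrays, against 29.0% over all 2352 such genes. Of the most posterior members, Hoxb13, Hoxd11 and Hoxd13 were below background on all 6 arrays, Hoxa13 was above it on 2 arrays of each group and differed by 0.09, and Hoxa11 was above it on 1 Static array and differed by 0.63 (adjusted p = 0.78 and 0.22).

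**Figure D3:**
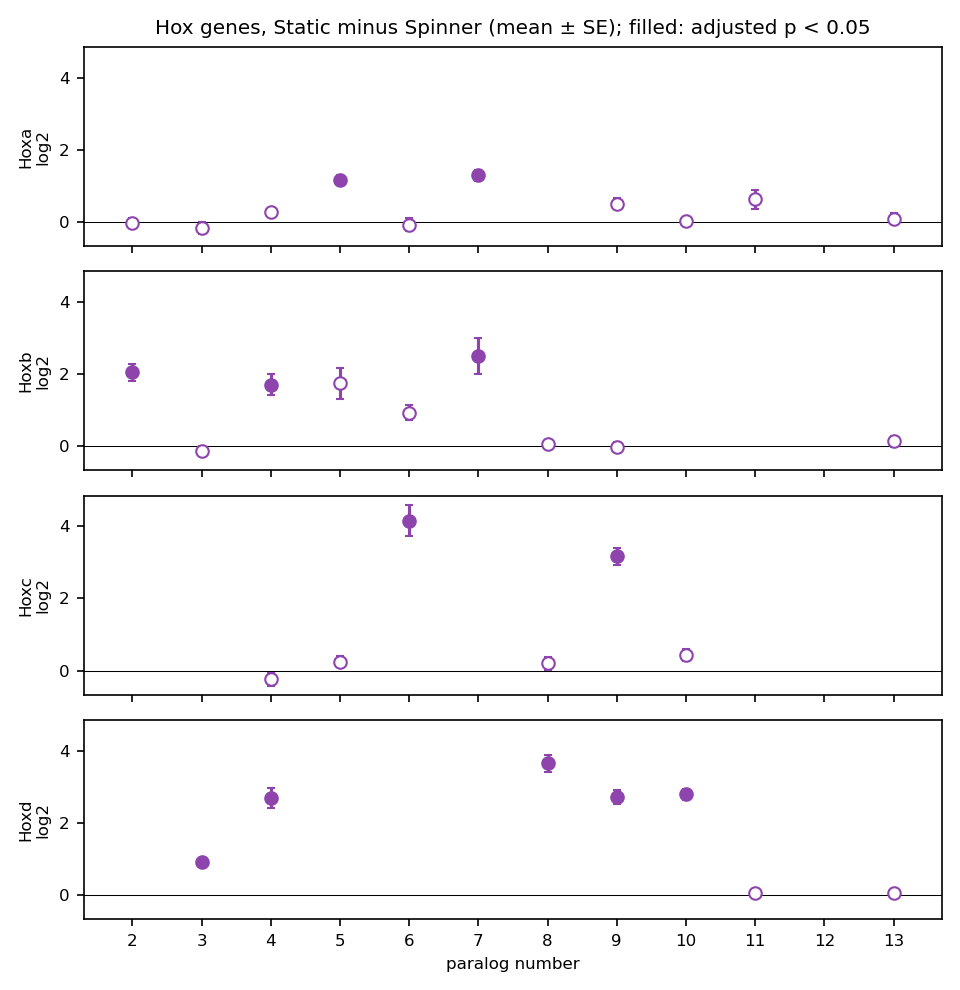
Log2 difference of Static and Spinner (y axis) for the Hox genes of paralog groups 2 to 13 by paralog number (x axis), with a panel for each cluster; points are means, bars are SE, and filled points passed the test. The 12 filled points are all above 0. Genes below background on all 6 arrays include Hoxd3 among the filled points, and Hoxb13 and Hoxd13 among the open ones.

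The reference arrays place these Hox values. Undifferentiated ESCs were above all Spinner arrays for 10, 11 and 12 of the 13 Hox genes that rose, with Hoxc6 at 6.84, 7.24 and 7.44 and Hoxd10 at 5.81, 8.27 and 6.12. Over all 35 Hox genes the counts were 18, 19 and 28. The 13 genes were selected as lower in Spinner, which favours such counts, and the share of all genes is not given here. BM and FL cells were at the Spinner level for Hoxc6 (5.86 and 5.86) and Hoxd10 (5.89 and 5.77), and above Static for Hoxa7 (8.83 and 9.16, against 7.53, 7.33 and 7.49 in Static). Hoxa5 and Hoxb4 were above Spinner in native cells too, with means of 7.47 and 8.11 in BM and 7.80 and 7.23 in FL. Synthecon cells lay between Spinner and Static, with means of 6.70 for Hoxc6 and 6.91 for Hoxd10.

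Imprinted genes were the list with the largest share of rises. Of 25 measured, 11 rose and none fell (Dlk1, Cdkn1c, Peg3, Grb10, H19, Phlda2, Gnas, Igf2r, Igf2, Ndn and Peg10). Many imprinted genes set fetal and placental growth. Dlk1, a paternally expressed Notch-like ligand of fetal progenitors, was at 12.18, 13.39 and 13.71 in Static and at 6.87, 6.89 and 8.59 in Spinner, 50.1-fold higher (log2 difference 5.65 ± 0.54, adjusted p = 0.0038). Igf2, a fetal growth factor, was at 14.62, 14.71 and 14.79 against 12.92, 12.55 and 13.48, and H19, the noncoding RNA expressed from the other allele of the same locus, at 10.49, 11.51 and 11.60 against 9.09, 9.0 and 8.82 (3.30-fold and 4.69-fold, adjusted p = 0.0085 and 0.014). Both members of this reciprocally imprinted pair therefore rose, as did Igf2r, the maternally expressed receptor that clears Igf2 (3.66-fold, adjusted p = 0.0053). Cdkn1c, a maternally expressed inhibitor of the cell cycle, was at 12.05, 12.67 and 14.09 against 9.58, 9.52 and 10.23, 8.95-fold higher (adjusted p = 0.018). Peg3 was at least 6.50-fold and Grb10 5.13-fold higher. The median difference over the list was 1.24, against -0.02 over all genes.

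Mesenchymal genes, fibrillar collagens and fibroblast markers were among the rises. Of 22 mesenchymal transition genes 9 rose and none fell (Vim, Twist1, Twist2, Mmp2, Mmp14, Loxl1, Pdgfra, Fbn1 and Tgfbi), with a median difference of 1.28. Twist2, a factor of dermal and limb mesenchyme, was at 9.16, 10.12 and 9.93 in Static and at 5.94, 6.01 and 6.58 in Spinner, at least 7.73-fold higher (adjusted p = 0.0022). Tgfbi, a matrix protein induced by TGF-beta, was at 11.34, 12.62 and 12.60 against 7.68, 7.82 and 7.74, 21.7-fold higher (adjusted p = 0.0016). Mmp2, a gelatinase, was at 11.75, 11.93 and 12.28 against 9.5, 9.46 and 9.73, 5.36-fold higher (adjusted p = 0.0025). The fibrillar collagen gene Col5a1 was at 11.82, 13.52 and 13.22 against 8.69, 8.53 and 9.63, and Col3a1 at 9.43, 12.41 and 9.26 against 5.66, 5.60 and 6.24 (14.9-fold and at least 12-fold, adjusted p = 0.007 and 0.025). Of 19 basement membrane genes, by contrast, Fbln1 rose and none fell, with a median difference of 0.23. Spinner replicate 3 was the highest Spinner array for Col5a1, Col3a1, Vim and Loxl1.

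Because the ESCs had been grown on fibroblast feeders, the 25 feeder fibroblast genes were read in the same way. Of these 9 rose (Col1a1, Col3a1, Col5a1, Col6a1, Twist2, Fbln1, Mfap4, Serpinf1 and Cdkn2a), none fell, and 7 were below background on all Static arrays and 16 on all Spinner arrays. The summed log2 level of the list was 191 to 218 in Static, 167 to 173 in Spinner and 182 to 217 in undifferentiated ESCs. In undifferentiated ESCs 11, 22 and 16 of the 25 genes lay above all Spinner arrays, and the share of all genes that did so is not given here. Members differed in how Static stood to these cells. S100a4, a fibroblast calcium-binding protein, was at 8.89, 11.40 and 8.56 in undifferentiated ESCs and at 6.06, 6.59 and 6.12 in Static, and Thy1 at 9.44, 10.74 and 8.84 against 7.00, 5.92 and 6.22. Postn, Fap and Dpt were below background on all 6 arrays of Static and Spinner. Col5a1 was at 8.81, 11.70 and 9.84 in undifferentiated ESCs and at 11.82, 13.52 and 13.22 in Static. Cdkn2a, a cell cycle inhibitor, was at 7.41, 10.50 and 9.21 in undifferentiated ESCs and at 8.43, 8.50 and 8.67 in Static. The part of feeder cells in the rise of matrix genes, and in that of Hox genes, was not tested.

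Signalling genes that rose were mostly ligands and receptors of TGF-beta, BMP and growth factors. Of 41 BMP, Nodal and TGF-beta genes 7 rose (Bmp4, Smad6, Tgfb1, Tgfb2, Tgfbr2, Tgfbr3 and Ltbp1) and Lefty1 fell. Tgfb1, the founding ligand, was at 8.38, 9.2 and 9.74 in Static and at 6.27, 6.13 and 6.46 in Spinner, at least 4.99-fold higher (adjusted p = 0.0066). Its type II receptor Tgfbr2 was at 8.79, 10.77 and 11.21 against 7.15, 7.16 and 6.93, 9.06-fold higher (adjusted p = 0.030). Of 37 FGF, VEGF and related growth factor genes 7 rose and 3 fell. Nrp1, a coreceptor for VEGF and semaphorins, was at 10.55, 13.32 and 12.67 against 6.86, 6.72 and 7.17, 38.4-fold higher (adjusted p = 0.0067). Igfbp4, a binding protein of insulin-like growth factors, rose 13.4-fold and its relative Igfbp2 fell 2.57-fold (adjusted p = 0.0022 and 0.045). Fgf17 fell 3.02-fold, as did Fgf5 above. In the Wnt list Wnt5a (at least 4.01-fold), Rspo3 (5.41-fold) and Dkk3 (4.27-fold) rose out of 36 genes, and none fell. Wnt5a signals mainly outside beta-catenin, Rspo3 raises Wnt signalling at the receptor and Dkk3 is a secreted relative of Wnt inhibitors.

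Extraembryonic and epithelial genes moved in both directions. Of 23 trophoblast genes 7 rose (among them Cdx2, Gata3, Plac1, Ets2, Krt8 and Peg10, several of which are used outside the trophoblast too) and 2 fell. Plac1, a placental membrane protein, was at 9.02, 10.59 and 10.71 in Static and at 6.35, 6.88 and 6.16 in Spinner, 12.5-fold higher (adjusted p = 0.0081), and Gata3, a factor of trophoblast and of T cells, was at 8.00, 8.14 and 8.19 against 6.45, 5.95 and 6.47, at least 2.50-fold higher (adjusted p = 0.0057). Of 40 visceral and primitive endoderm genes Pdgfra and Rbp4 rose and none fell. Gata6, the factor that leads that lineage, was at 11.58, 13.04 and 12.19 against 9.74, 10.71 and 8.64 and did not pass (adjusted p = 0.051). Ttr, a transport protein of visceral endoderm, was at 10.61, 9.67 and 12.88 against 8.47, 9.07 and 6.99 (adjusted p = 0.10). Grhl2, a factor that holds epithelial identity, was at 8.05, 6.3 and 6.75 against 9.42, 9.86 and 9.17, 5.45-fold lower (adjusted p = 0.032), while the junction gene Dsp and the keratin gene Krt8 rose (at least 5.05-fold and 3.66-fold).

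Among further large rises, several stood at nearly the same level on all Static arrays. Capn6, a calpain without protease activity that binds microtubules, was at 11.99, 12.12 and 12.44 in Static and at 7.95, 7.57 and 7.52 in Spinner (log2 difference 4.5 ± 0.23, adjusted p = 0.00057), the smallest adjusted p among the genes named here. Its mean was 6.61 in undifferentiated ESCs and 5.86 in BM, so that Static stood above all of these. Msx1, a homeobox gene of mesenchyme and neural crest, was at 10.33, 10.45 and 10.79 against 6.59, 6.38 and 7.09, 14.3-fold higher (adjusted p = 0.001). Pmp22, a membrane protein of myelin and of growth-arrested fibroblasts, was at 11.79, 12.80 and 12.11 against 7.23, 6.66 and 8.30 (adjusted p = 0.0027). Igsf11, an adhesion protein, was at 10.40, 11.40 and 10.93 against 6.6, 6.98 and 6.71 (adjusted p = 0.001). Ednra, the endothelin receptor of smooth muscle and mesenchyme, was at 9.23, 10.63 and 10.58 against 6.2, 6.31 and 6.72 (adjusted p = 0.0047). Klhl6, a lymphoid ubiquitin adaptor, was at least 13.5-fold higher, and was at 11.74 in BM.

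Further falls held amino acid, lipid and signalling genes. Slc7a3, a transporter of cationic amino acids, was at 10.48, 8.11 and 8.48 in Static and at 12.67, 12.97 and 12.54 in Spinner (log2 difference -3.70 ± 0.54, adjusted p = 0.017). Enpp2, the autotaxin that makes lysophosphatidic acid, was at 7.80, 7.34 and 6.98 against 10.10, 10.19 and 10.09 (adjusted p = 0.0029), a fall of like size on each Static array. Aire, the regulator of self-antigen expression in thymus, was at 8.56, 6.64 and 6.41 against 10.36, 10.57 and 9.56 (adjusted p = 0.038). Smc1b, a cohesin subunit of meiosis, was at 8.38, 6.37 and 6.38 against 9.90, 9.83 and 9.40 (adjusted p = 0.041). The synaptic disintegrin gene Adam23, the cystathionine gamma-lyase gene Cth and the fatty acid transporter gene Slc27a2 fell as well (adjusted p = 0.028, 0.041 and 0.0061).

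Lists on flow, oxygen and growth held counts of calls to be read against the 2.38% of all genes called. Of 34 shear and immediate early response genes none was called. Klf2, a factor induced by flow in endothelium and also expressed by ESCs, was at 11.81, 10.25 and 9.67 in Static and at 12.07, 12.25 and 12.37 in Spinner (adjusted p = 0.11), and Egr1 at 12.72, 13.73 and 13.94 against 11.66, 12.23 and 12.80 (adjusted p = 0.11). Of 37 hypoxia and glycolysis genes Vegfa rose (2.09-fold, adjusted p = 0.047) and none fell. No gene passed among 34 respiratory chain, 31 ribosomal protein, 27 heat shock, 22 cholesterol synthesis, 20 MHC class I and 34 histone genes. Of the histone genes, however, 18 did not overlap in the downward direction, against 15% of all genes, and 1 in the upward direction. The histone medians were -0.49, -0.22 and -1.03 on the Static arrays. Of 40 cell cycle genes Cdkn1c, Cdkn2a and Ccnd2 rose, of which Cdkn1c and Cdkn2a are inhibitors. Other probes of Cdkn2a and Vegfa that were above background on all 6 arrays did not pass, with log2 differences of 0.18 and 0.62 (adjusted p = 0.74 and 0.30) against 1.28 and 1.06 for the probes used. Mcm7, a replication helicase subunit, was at 9.72, 8.94 and 8.53 against 10.37, 10.39 and 10.65 and did not pass (adjusted p = 0.060). Among further lists, 2 genes rose of 17 smooth muscle (Csrp1 and Vim), 28 p53 and apoptosis (Fas and Plk2), 33 antioxidant (Gpx3 and Gpx8) and 25 Notch genes (Hey2 and Dlk1), and Dtx1 of the Notch list fell. Hey2 was below background on all 6 arrays. A single gene rose of 23 interferon response (Usp18), 18 neutrophil granule (Pglyrp1) and 29 neural and ectoderm genes (Msx1), and none of 16 lymphoid progenitor genes was called. Among 13 reference genes used for scaling none was called, and their median difference was 0.07.

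**Figure D4:**
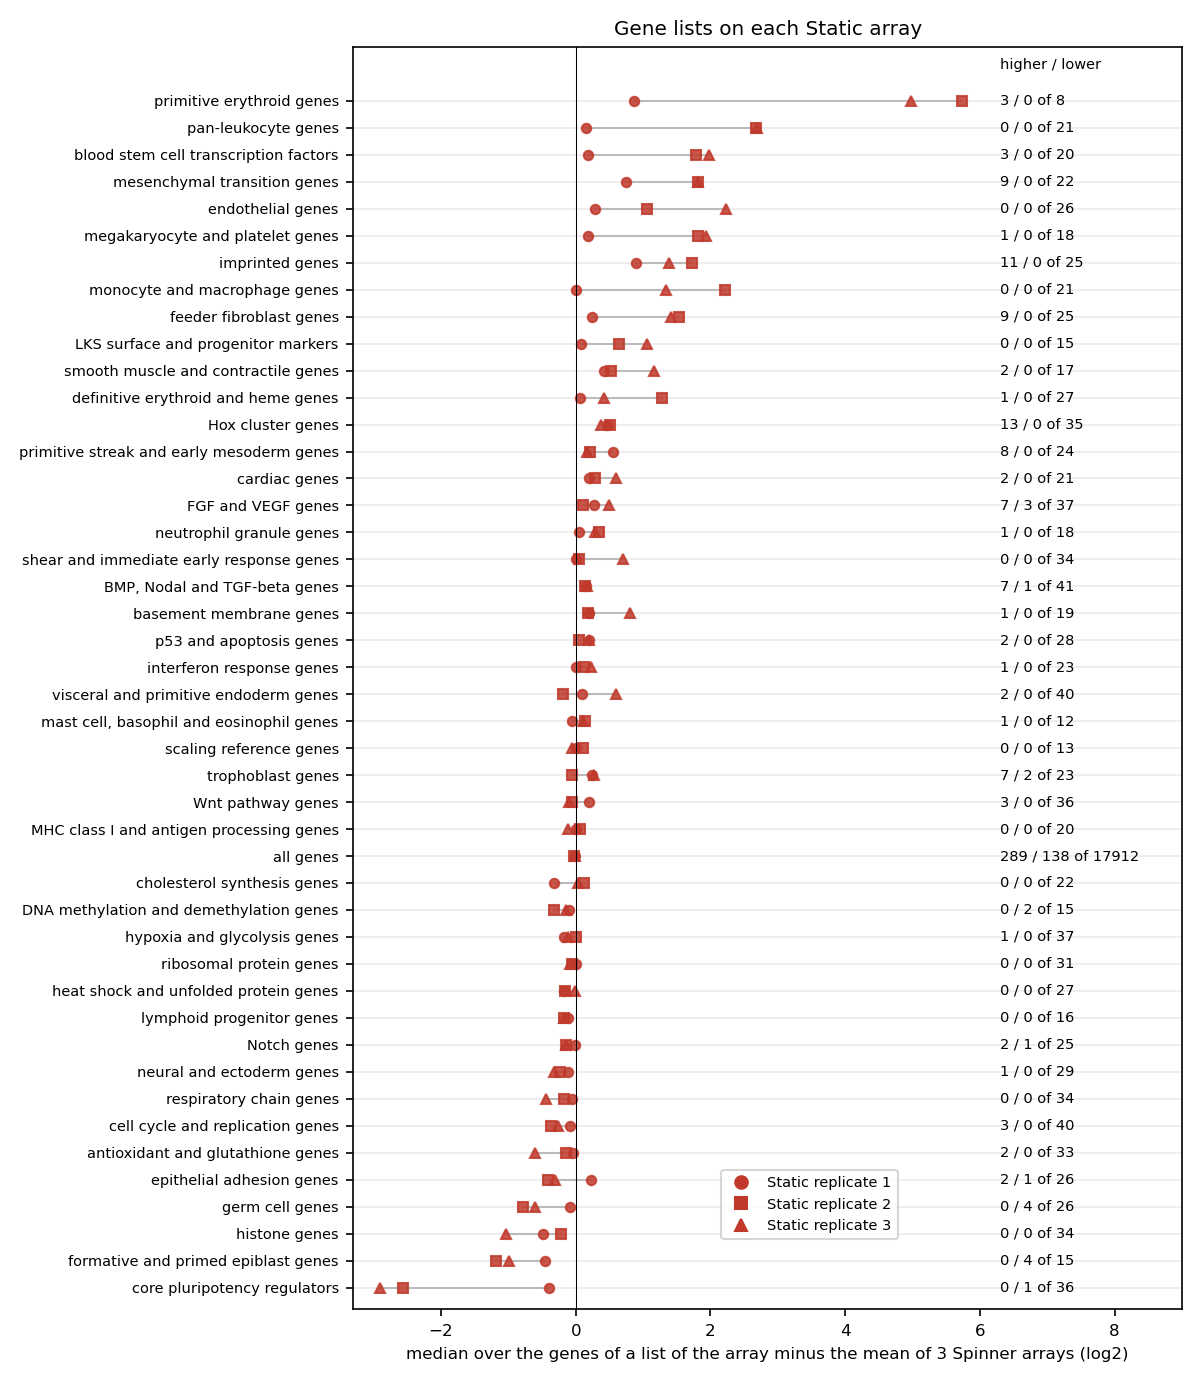
For each gene list, the median over its genes of the log2 difference of each Static array from the mean of the 3 Spinner arrays (x axis), with the numbers called higher and lower of those measured at the right; lists are sorted by their median. In the lists of leukocyte, monocyte and megakaryocyte genes and of core pluripotency regulators, Static replicate 1 lies much nearer to 0 than the other Static arrays. For the pluripotency list the medians are -0.40, -2.56 and -2.91. In the Hox list the 3 arrays lie close together (0.47, 0.51 and 0.38), but 18 of its 35 members were below background on all Static arrays. Over the 13 Hox genes that rose, the medians of the Static arrays were 1.55, 2.47 and 2.38. In the imprinted list the Static arrays are at 0.89, 1.72 and 1.38.

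The position of Static replicate 1 was read by list over the genes for which Static replicates 2 and 3 lay at least 1 log2 unit from Spinner, a filter that those arrays set. Of the way from Spinner to the other Static arrays, it had covered a median of 29.0% over all 2352 such genes, 63.2% for 15 imprinted genes, 61.5% for 10 early mesoderm genes and 56.2% for 15 mesenchymal genes. It had covered 13.3% for 32 core pluripotency regulators, 9.52% for 12 blood transcription factors, 6.18% for 16 pan-leukocyte genes and 1.63% for 14 monocyte genes. Lists of other kinds lay at both ends as well. The median was 64.4% for 11 visceral and primitive endoderm genes and 61.0% for 11 trophoblast genes. It was 10.5% for 12 antioxidant genes and 5.46% for 9 heat shock genes. The 8 primitive erythroid genes were at 26.0%, near the value over all genes. These are medians over genes of a single array and were not tested.

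Distances over all probes are given as values, since 3 against 3 arrays cannot pass a threshold of 0.05. The Euclidean distance to native cells, as the average profile of BM with FL, was 158, 137 and 150 for the Static arrays and 161, 161 and 158 for Spinner, a difference of -11.8 (exact permutation test, two-sided, p = 0.2, where 0.1 is the smallest p that the design allows). To BM alone it differed by -11.6 (exact permutation p = 0.1) and to FL alone by -11.6 (exact permutation p = 0.2). Static replicate 2 was the nearest to native cells and replicate 1 lay at the Spinner level. The distance to undifferentiated ESCs was 72.2, 117 and 129 for Static and 73.6, 73.7 and 66.2 for Spinner (exact permutation test, p = 0.3). Static replicate 1 was as near to undifferentiated ESCs as the Spinner arrays were. Its values nevertheless included the globin, Hox and mesoderm signal given above.

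**Figure D5:**
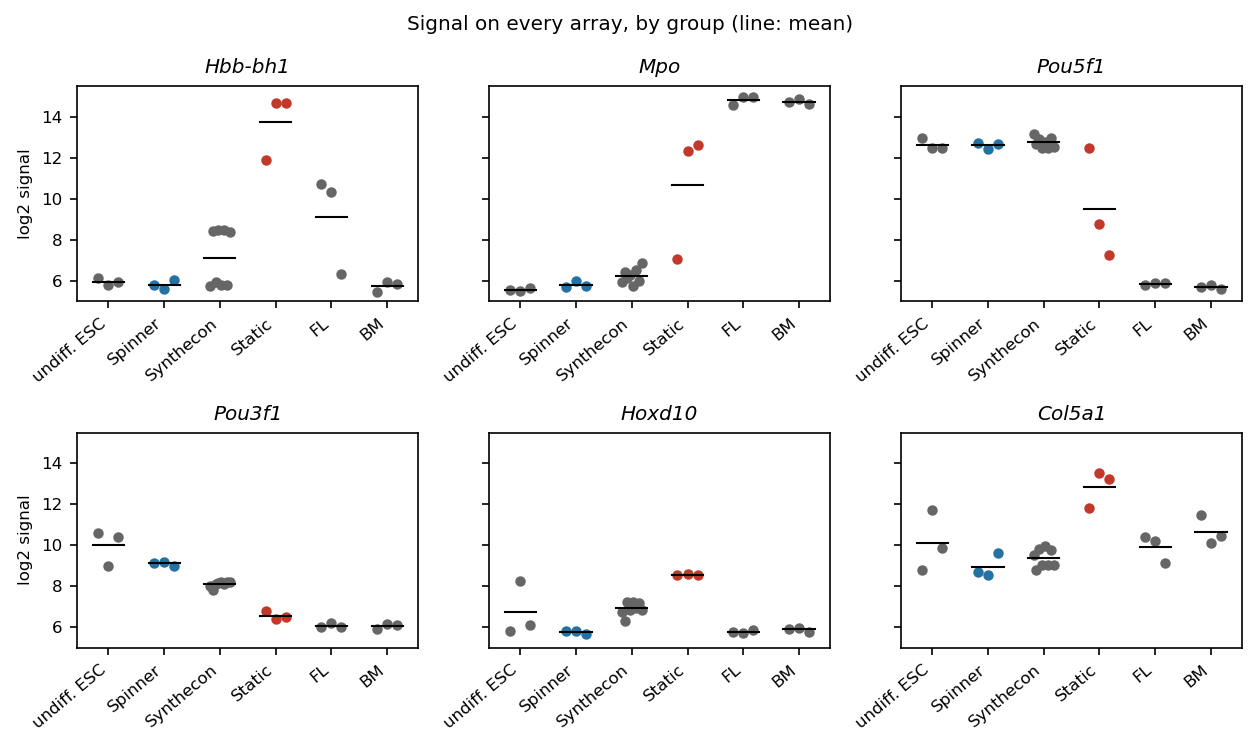
Log2 signal (y axis) of 6 genes on all 23 arrays by group, with each array as a point and the mean as a line; Static is red and Spinner blue. Hbb-bh1 is highest in Static and splits the 8 Synthecon arrays into 4 near 8.4 and 4 near 5.8, Mpo and Pou5f1 split the Static arrays, and Pou3f1 and Hoxd10 hold the Static arrays together.

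Of 98 genes named or plotted here that passed the test, 19 also passed under every alternative that used a moderated test and more than 1 slide. They were Hbb-bh1, Hoxc9, Hoxd8, Hoxd9, Hoxd10, Cdx2, Hand1, Msx1, Twist2, Tgfbi, Dlk1, Igfbp4, Capn6, Igsf11 and Pmp22 among the rises and Pou3f1, Fgf5, Enpp2 and Acoxl, an acyl-CoA oxidase relative, among the falls. The largest adjusted p of any of them over those alternatives was 0.045. Within slide 1, which holds 2 arrays of each group, no probe passed (limma, 3268 probes at an unadjusted p under 0.05), and Hoxd10 was the 1 probe called by the methods' t-test with equal variances.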

How the data were processed

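RNA (100 ng per sample, 1 round of amplification) was read on Illumina mouse bead arrays. The authors used BeadStudio to summarize beads and to subtract background, applied quantile normalization over the 23 arrays and deposited log2 values for 25697 probes. These equal quantiles of the signal raised by an offset of 60.2, which compresses differences between dim probes. The authors also deposited bead intensities on a linear scale without normalization, and detection p-values of each probe against negative control beads. Columns of the authors' own group means, log ratios and test p-values, and a sheet of differentially expressed genes, were not used. A total of 24202 probes (94.2%) took their gene symbol by transcript accession from RefSeq, and the brightest probe stands for a gene.

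The test of Static against Spinner was limma's (version 3.58.1, R 4.3.3; lmFit, eBayes with trend) on their 6 arrays, two-sided, with Benjamini-Hochberg adjustment over all probes and calls at 0.05. The number of arrays limits the precision. The study gives 3 biological replicates per group; Spinner replicates 1 and 2 were close repeats, so p-values may partly measure technical spread. Genes named are the 15 largest rises and falls among called genes above background in both groups, the 6 largest with a group below background, up to 5 members per list and any a statement turns on, markers fixed by name, and the 5 called genes of smallest spread in each direction. Members and the 45 lists (1016 genes) were chosen with earlier results of these data known. Other probes of Cth, Dkk3, Gnas, Ltbp1 and Vegfa had the opposite sign but were below background. For Dppa4, Sall1, Pfkp and Ifitm1 (lower) and for Hoxc10 and Prrx1 (higher) another probe passed the test where the brightest did not. For Hbb-bh1 no promoter was used here, and some listed genes are not reported by name. The fit was also run on simulated arrays, in which both groups had the same spread. In the data the median SD was 0.22 in Static and 0.13 in Spinner, a difference that the simulation did not cover. Alternatives covered the arrays, slide, near repeats, weights, filter, normalization, background correction and test.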

Additional observations from a re-analysis of the deposited data

How the results depend on the processing

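Counts of called probes moved with nearly every choice, and the direction of named genes did not, apart from Ly6a. Higher and lower probes numbered 337 and 171 as reported, with 100 listed genes called. They were 1774 and 1739 (331 listed genes) with all 23 arrays in the fit, 1317 and 1332 (243) with the Synthecon arrays as 2 set means, and 1756 and 1988 (328) with the slide as a block. Within slide 1 they were 0 and 0 (0 listed genes), with Spinner replicates 1 and 2 averaged 23 and 6 (15), and with array weights per group 799 and 578 (192). Probes above background alone gave 546 and 378, and median scaling 540 and 345. The methods' t-test gave 1 and 0 (1 listed gene) with equal variances and 0 and 0 (0) with unequal ones, where 3965 and 2488 probes had an unadjusted p under 0.05. Leaving out each array in turn gave 22 to 2528 higher probes, 4 to 2548 lower probes and 15 to 441 listed genes called. All 427 genes called were also called without Static replicate 1, and 27 of them with the Spinner repeats averaged. The fit without a trend, robust eBayes, neqc and the series matrix kept the counts within 1.5 times. Why the counts moved was not tested, beyond the fewer arrays of some fits and the shared spread of others.

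Replicate numbers were not taken as pairs in the main fit. Deviations of same-numbered Static and Spinner arrays correlated at 0.28, -0.07 and 0.20, and those of arrays with different numbers at -0.26 to 0.14. Whether the numbers mark pairs cannot be told from these values. With the replicate number as a block, 567 probes were higher and 345 lower. The difference of Ly6a, -0.06, was 0.05 with the Spinner repeats averaged and -0.28 to 0.13 with each array left out. The difference in distance to native cells kept its sign without each array and over probes above background (-16.7 to -6.14), alternatives chosen after seeing the data. Signal over background limits the dim genes, of which 97 that rose and 55 that fell had a group below background.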
